A study of Bos taurus with 12 samples.

Results

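The histone and chromatin modifier families examined here comprise 38 genes of the 27607 in the count table, taken by the start of their symbol (KDM, KMT, KAT, HDAC, SIRT, SETD, SMARC, ARID, BRD, CHD, DNMT, PHF, PRDM or TET with a digit). A gene was a member if a supplementary table of the study paired its symbol with an Ensembl identifier and if it had at least 10 counts in at least 6 of the 12 libraries. All 38 genes so named and considered here passed the count rule, each with at least 10 counts in all 12 libraries. The lowest counts were those of SETD7, from 17 to 88 per library, followed by SMARCD3, from 57 to 186. No HDAC or DNMT gene was among the symbols paired with an identifier, so those families were not analysed here. Most members owe their place to tables of co-expression, regulators or differing proteins that were made from the same heifers, so they were partly chosen by correlations in these data and the 38 genes are not a full or independent catalogue of bovine chromatin modifiers.

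The RNA came from peripheral white blood cells (PWBCs) of 12 Simmental-Angus cross-bred beef heifers, drawn 2 days before artificial insemination (AI). The 6 fertile heifers conceived to the first AI, and the 6 subfertile heifers were not pregnant after AI and a period of natural service. All 12 were synchronized with the same progesterone-based protocol and inseminated with semen of a single sire, and their reproductive tract score was 4, except for 2 heifers, LM1247 (fertile) and LM1246 (subfertile), with a score of 5. Each heifer gave 1 library, so the replicates are animals, and the class of each heifer rests on 1 breeding season.

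Chromatin modifiers write, remove or read chemical marks on histones and DNA, or use ATP to slide and eject nucleosomes. Writers such as the lysine methyltransferases (KMT, SETD) and acetyltransferases (KAT) are opposed by erasers, the demethylases (KDM) and the NAD-dependent sirtuins (SIRT), while bromodomain and PHD finger proteins bind the marks. SWI/SNF, ISWI and CHD remodellers change how accessible DNA is, and TET enzymes oxidize methylated cytosine. In leukocytes these activities are known for their part in lineage choice, activation and inflammatory memory.

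Library totals ran from 14010736 to 21278761 counts. The most abundant gene of each library, which carried no symbol in the tables used here, held from 1.82% of the counts in LM1330 to 7.4% in LM1283. Of 39 markers of blood cell types, 13 could be named and were tested. T-cell, B-cell and cytotoxic transcripts were present in every library, and so was the neutrophil transcript S100A9, from 21.7 CPM in LM1330 to 211 CPM in LM1283, whereas the neutrophil receptor CXCR2 was at 0 CPM in LM1330 and at most 7.81 CPM elsewhere. Between the groups 4 of the 13 markers were higher and 9 lower in subfertile heifers. An unadjusted edgeR P of 0.05 or less was reached by JCHAIN, with a log2FC of 0.59, and GZMB, with a log2FC of -1.0, and by neither after adjustment (adjusted P = 0.9998). The exact permutation P was 0.0433 for JCHAIN but 0.18 for GZMB. GZMB was highest in LM1247 (19.2 CPM) and LM1298 (16.4 CPM), both fertile. The platelet integrin ITGB3 stood at 1930 CPM in LM1330 and at 106 and 118 CPM in LM1244 and LM1246, the lowest of the 12. LM1330, LM1244 and LM1246 therefore differed from the others in a cell type marker. In bulk RNA, fewer cells of a type and less RNA per cell cannot be told apart.

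The first question was whether any modifier differed in transcript level between fertile and subfertile heifers. In edgeR's quasi-likelihood test over 13012 genes, 1 of the 38 members, the remodeller CHD1L, reached an unadjusted P of 0.05 or less, and it was higher in subfertile heifers. The background was 341 of the 13012 genes tested, or 2.62% (1.41% higher and 1.21% lower in subfertile heifers), against 2.63% of the members. At the thresholds of the study, unadjusted P of 0.05 or less with an absolute log2 fold change (log2FC) of 0.5 or more, no member was called, against 1.4% of all genes tested. At an adjusted P of 0.05 neither a member nor any other gene was called by edgeR, DESeq2 or voom with limma, and the adjusted P by edgeR was 0.9998 for each member. DESeq2 and voom also gave CHD1L as the 1 member with an unadjusted P of 0.05 or less, whereas with library size alone in place of TMM no member reached it (CHD1L log2FC 0.28, with an unadjusted edgeR P of 0.0717). In all 38 members the values of the groups overlapped, and groups without overlap made up 0.123% of the genes tested.

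The estimates were small as well as uncertain. The log2FC of subfertile against fertile heifers ran from -0.35 for SETD7 to 0.27 for CHD1L, and 30 of the 38 members had an absolute log2FC below 0.1, with a median absolute log2FC of 0.06 against 0.11 over all genes tested. For 31 members (81.58%) the 95% interval of the log2FC lay within -0.5 to 0.5, which was the case for 50.42% of all genes tested. The interval reached past these limits for SETD7, SMARCD3, TET3, KAT2B, SIRT3, PRDM10 and CHD1L. The members were more abundant than all genes tested (median log2 CPM 6.44 against 4.57). Neither the log2FC nor the intervals were compared at like abundance, so nothing about chromatin genes as such is read from these comparisons. The log2FC was above 0 for 26 members and below 0 for 12, a share of 68.4% beside 51.8% of all genes tested, and the median over the members was 0.04 against 0.01. The sign turned for 24 of the 38 members when 1 heifer or another was left out, so this tally of directions is not stable.

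**Figure D1:**
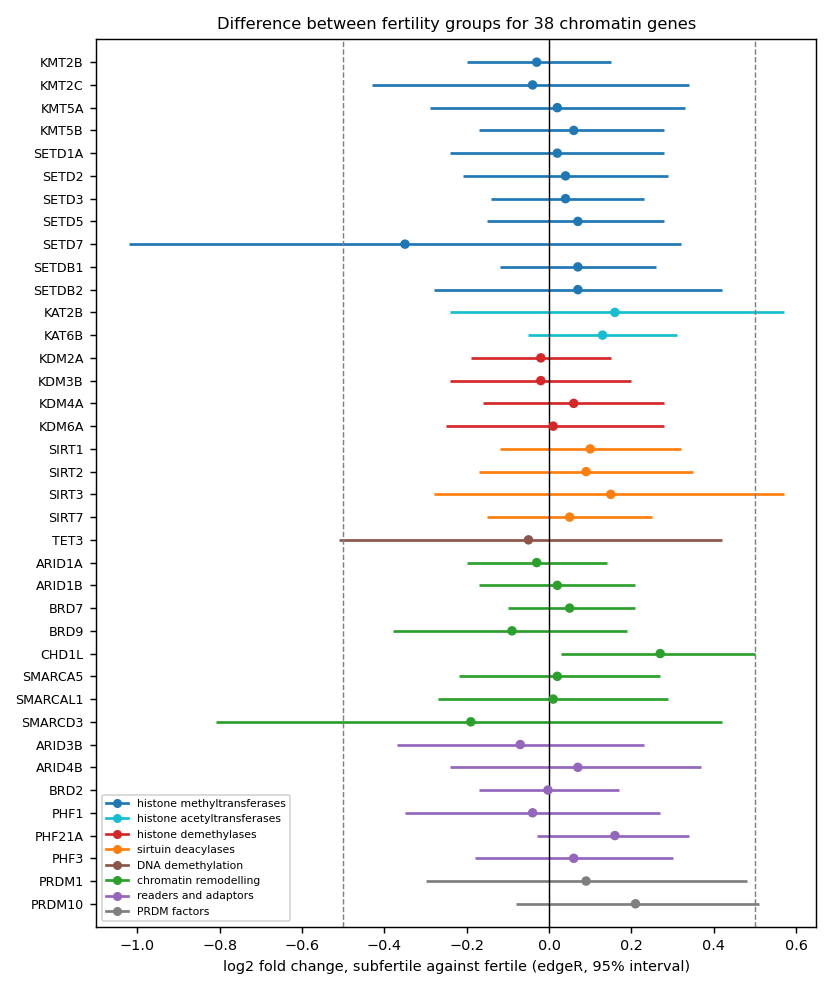
Log2 fold change of subfertile against fertile heifers for the 38 chromatin genes, grouped and coloured by role, with the 95% interval from edgeR; the dashed lines mark -0.5 and 0.5. The interval of CHD1L (0.03 to 0.50) is the one that leaves out 0, and the widest intervals are those of SETD7 and SMARCD3.

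The chromatin remodelling genes formed a group of 8, with 5 higher and 3 lower in subfertile heifers and a median log2FC of 0.01. CHD1L, a remodeller that is switched on by poly(ADP-ribose) at sites of DNA damage, counted 38.5, 45.1, 47.1, 50.4, 50.8 and 53.9 CPM (counts scaled to a common library size after TMM normalization) in the fertile heifers. In the subfertile heifers it counted 47.5, 52.6, 53.0, 59.6, 61.3 and 70.3 CPM. The subfertile values were above the fertile median in 5 of 6 heifers, and the groups overlapped between 47.5 and 53.9 CPM. The means were 47.6 ± 5.43 and 57.4 ± 8.08 CPM (SD, n = 6 each), for a log2FC of 0.27 (SE 0.11), with an unadjusted edgeR P of 0.0282, an adjusted P of 0.9998 and an exact two-sided permutation P of 0.0325.

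Whether CHD1L passed the threshold depended on single heifers, while its log2FC stayed between 0.20 and 0.32. The highest value was that of LM1259 and the lowest that of LM1330, and without them the log2FC was 0.20 and 0.21. Without LM1298, LM1246 or LM1251 it was 0.25, 0.25 and 0.26, and in each of these 5 fits the unadjusted P exceeded 0.05, from 0.0508 to 0.0753. In the other 7 such fits it stayed at or below 0.05, and the log2FC was positive in all 12. LM1259 also had the highest level of UHRF1, ATAD2 and JCHAIN, and LM1330 the highest of the platelet markers, and between the groups JCHAIN and GZMB moved as given above. Their part in the result was not tested.

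No other remodelling gene had an unadjusted edgeR P of 0.05 or less. ARID1A and ARID1B, alternative DNA-binding subunits of the canonical BAF form of SWI/SNF, had a log2FC of -0.03 and 0.02. BRD7, a bromodomain subunit of the PBAF form, counted 103, 113, 120, 120, 125 and 125 CPM in fertile and 116, 118, 120, 122, 128 and 130 CPM in subfertile heifers. These were nearly the same values in both groups, and BRD7 had the lowest spread between heifers of all members (SD of log2 CPM within groups 0.09) and a log2FC of 0.05 (SE 0.07, 95% interval -0.10 to 0.21). BRD9, which marks the non-canonical form of SWI/SNF, counted 77.2, 79.4, 87.2, 97.2, 97.3 and 103 CPM in fertile and 63.6, 68.3, 81.0, 87.1, 101 and 107 CPM in subfertile heifers. The subfertile heifers held both the highest and the lowest BRD9 values, and the log2FC was -0.09 (SE 0.13, 95% interval -0.38 to 0.19).

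SMARCD3, a SWI/SNF subunit best known from heart and muscle, had the largest within-group SD of log2 CPM of the members. It counted 4.17, 5.71, 5.73, 6.51, 7.45 and 11.2 CPM in fertile and 2.66, 5.19, 5.36, 6.51, 7.28 and 8.68 CPM in subfertile heifers. LM1330 was highest and LM1246 lowest, a 4.23-fold range (4.31-fold for SETD7), and the log2FC was -0.19 (SE 0.29, 95% interval -0.81 to 0.42). Without LM1330 it was 0.0029. SMARCA5, the ATPase of ISWI complexes, and SMARCAL1, which re-anneals DNA at stalled replication forks, had a log2FC of 0.02 and 0.01.

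**Figure D2:**
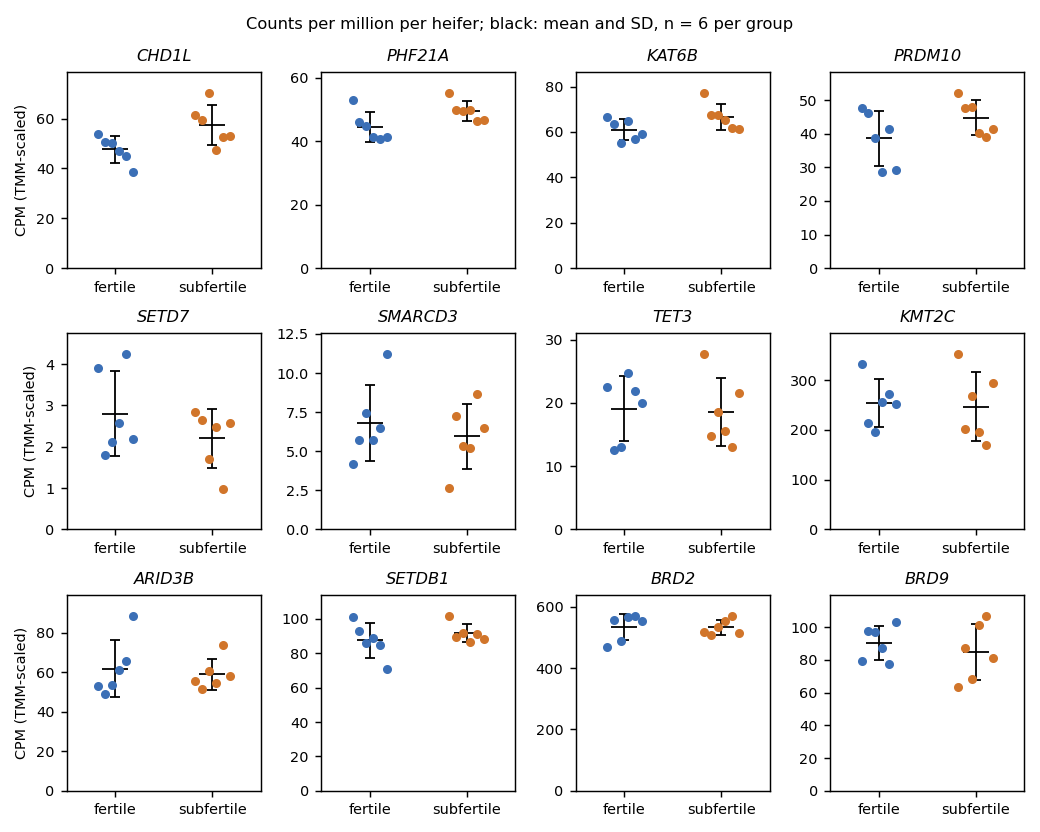
CPM in each heifer for 12 members, fertile in blue and subfertile in orange, with the mean and SD (n = 6 per group) in black and each vertical axis starting at 0. The groups overlap in every panel, and CHD1L and PHF21A show the clearest shift upward in subfertile heifers.

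Among the 11 histone methyltransferases 8 were higher and 3 lower in subfertile heifers, none with an unadjusted edgeR P of 0.05 or less, and the median log2FC was 0.04. SETD7, which methylates histone H3 and several non-histone proteins, counted 1.80, 2.12, 2.18, 2.57, 3.91 and 4.24 CPM in fertile and 0.984, 1.70, 2.49, 2.58, 2.64 and 2.84 CPM in subfertile heifers. Of the fertile heifers 2, LM1244 and LM1298, exceeded all the others, and LM1283 was lowest. The log2FC of -0.35 (SE 0.31, 95% interval -1.02 to 0.32) had an exact permutation P of 0.294, with a biological coefficient of variation of 36.7%. It was -0.19 without LM1298 and -0.20 without LM1283.

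SETDB1, which trimethylates histone H3 and silences retroelements, counted 71.0, 84.8, 86.2, 88.9, 93.3 and 101 CPM in fertile and 86.8, 88.5, 89.5, 91.4, 92.1 and 102 CPM in subfertile heifers. The subfertile values were tightly grouped except for LM1246, and the log2FC was 0.07 (SE 0.09, exact permutation P = 0.381). The log2FC of SETDB1 was 0.01 without LM1330 and 0.11 without LM1244. Its relative SETDB2 also had a log2FC of 0.07, with a 1.94-fold range from LM1283 to LM1246. KMT2C, which monomethylates histone H3 at enhancers, ranged over 2.08-fold, from 170 CPM in LM1283 to 352 CPM in LM1246, with a log2FC of -0.04 (SE 0.18). The range of KMT2C within each group was thus far larger than the difference between the group means, 254 ± 48.6 and 247 ± 70.1 CPM (SD, n = 6 each).

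KMT2B and SETD1A, catalytic subunits of COMPASS-type complexes that methylate histone H3 at promoters, had a log2FC of -0.03 and 0.02. SETD2, which trimethylates histone H3 along transcribed genes, had 0.04, and the histone H4 methyltransferases KMT5A and KMT5B had 0.02 and 0.06. SETD3, an actin histidine methyltransferase, had 0.04 and SETD5 had 0.07. These 7 genes lay within 0.07 of no difference, and their 95% intervals all lay within -0.29 to 0.33.

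Both acetyltransferases were higher in the subfertile mean without reaching the threshold. KAT6B, the catalytic subunit of a histone H3 acetyltransferase complex, counted 55.2, 57.0, 59.2, 63.4, 64.7 and 66.8 CPM in fertile and 61.2, 61.9, 65.5, 67.3, 67.3 and 77.2 CPM in subfertile heifers. The subfertile values were above the fertile median in 5 of 6 heifers, and the log2FC was 0.13 (SE 0.08, exact permutation P = 0.0844). The highest value was that of LM1246, without which it was 0.08. KAT2B, also called PCAF, ranged from 44.6 CPM in LM1330 to 98.8 CPM in LM1244, both fertile, with a log2FC of 0.16 (SE 0.19) that became 0.07 without LM1330 and 0.31 without LM1244.

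The erasers showed no called change. Among the 4 histone demethylases the log2FC ran from -0.02 to 0.06: KDM2A, which acts at CpG islands, and KDM3B were at -0.02, KDM6A, which removes the Polycomb mark, at 0.01 and KDM4A at 0.06. KDM2A was among the least variable members, from 342 to 410 CPM. All 4 sirtuins had a positive log2FC, with a median of 0.09, and none had an unadjusted edgeR P of 0.05 or less. The nuclear SIRT1 stood at 0.10, SIRT2, found mostly in the cytoplasm, at 0.09, the mitochondrial SIRT3 at 0.15 and the nucleolar SIRT7 at 0.05. SIRT3 counted from 7.87 CPM in LM1244 to 17.7 CPM in LM1283, and its 95% interval ran from -0.28 to 0.57. These estimates moved with single heifers. SIRT3 ran from 0.01 without LM1283 to 0.25 without LM1247, SIRT2 from 0.02 without LM1244 to 0.16 without LM1286, and SIRT1 from 0.04 without LM1330 to 0.17 without LM1262. SIRT7 turned to -0.01 without LM1283.

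TET3, a dioxygenase that starts DNA demethylation, counted 12.5, 13.0, 20.0, 21.9, 22.6 and 24.7 CPM in fertile and 13.1, 14.7, 15.6, 18.5, 21.5 and 27.7 CPM in subfertile heifers. The fertile values fell into a pair near 13 CPM, LM1247 and LM1262, and a set of 4 from 20.0 CPM upward, while the subfertile values were spread over the whole range, with the highest in LM1246. The log2FC was -0.05 (SE 0.22, 95% interval -0.51 to 0.42).

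The readers and adaptors comprised 6 genes, 3 higher and 3 lower, with a median log2FC of 0.03. PHF21A, a PHD finger protein of the LSD1-CoREST corepressor that binds unmethylated histone H3, counted 40.7, 41.2, 41.4, 44.8, 46.2 and 53.0 CPM in fertile and 46.5, 46.7, 49.6, 49.8, 49.9 and 55.2 CPM in subfertile heifers. Every subfertile heifer (6 of 6) exceeded the median of the fertile ones, and 1 fertile heifer, LM1244, stood inside the subfertile range. The log2FC was 0.16 (SE 0.09, 95% interval -0.03 to 0.34), with an unadjusted edgeR P of 0.0978, an adjusted P of 0.9998 and an exact permutation P of 0.0541. With 1 heifer left out the log2FC ran from 0.12 without LM1246 to 0.21 without LM1244, and the latter was the 1 of 12 such fits with an unadjusted edgeR P of 0.05 or less.

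BRD2, a BET family bromodomain protein that binds acetylated histones, counted 470, 489, 554, 556, 567 and 568 CPM in fertile and 509, 513, 518, 535, 552 and 571 CPM in subfertile heifers. The means of 534 ± 43.1 and 533 ± 24.6 CPM (SD, n = 6 each) differed by far less than the spread, with a log2FC of -0.0027 (SE 0.08, 95% interval -0.17 to 0.17). BRD2, BRD7 and BRD9 are members whose names came from the study's table of proteins that differed between the groups, and none of these 3 transcripts had an unadjusted edgeR P of 0.05 or less.

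ARID3B, a DNA-binding factor, was named in the study's table of regulators, as was SETDB1. ARID3B counted 48.9, 53.0, 53.4, 61.4, 66.0 and 88.8 CPM in fertile and 51.6, 54.8, 55.8, 58.1, 60.5 and 73.8 CPM in subfertile heifers. LM1330 was far above the rest, and the log2FC of -0.07 (SE 0.14) became 0.06 without it. ARID4B, a subunit of SIN3 corepressors, PHF1, an accessory subunit of Polycomb repressive complexes, and PHF3, which binds RNA polymerase II, had a log2FC of 0.07, -0.04 and 0.06.

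The PRDM factors were both higher in the subfertile mean. PRDM10, a zinc finger transcription factor, counted 28.6, 29.3, 38.6, 41.3, 46.1 and 47.6 CPM in fertile and 38.9, 40.3, 41.4, 47.6, 47.9 and 52.1 CPM in subfertile heifers. The 2 lowest values, LM1286 and LM1330, were fertile, and the log2FC was 0.21 (SE 0.14, exact permutation P = 0.145), and 0.14 without LM1286. PRDM1, also called Blimp-1 and required for plasma cells, ranged from 20.2 CPM in LM1251 to 43.0 CPM in LM1265, both subfertile, with a log2FC of 0.09 (SE 0.18) that turned to -0.01 without LM1265 and was 0.19 without LM1251. JCHAIN, a plasma cell transcript, had a log2FC of 0.59 and was highest in LM1259, where PRDM1 stood at 36.4 CPM.

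The spread between heifers of the same group was smaller for most members than for most genes. Within groups the SD of log2 CPM had a median of 0.20 over the members and 0.30 over all genes tested, and 31 of the 38 members were below the median of all genes. The members were also more abundant, with a median log2 CPM of 6.44 against 4.57, and among all genes the spread was lower at higher abundance. Between the quartiles of the members' abundance, 5.77 and 7.34 log2 CPM, the median SD was 0.17 for 18 members and 0.20 for 2675 genes tested. The spread was highest for SMARCD3, SETD7 and TET3 (0.53, 0.52 and 0.41) and lowest for BRD7, BRD2, KDM2A and ARID1A (0.09, 0.10, 0.10 and 0.10).

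**Figure D3:**
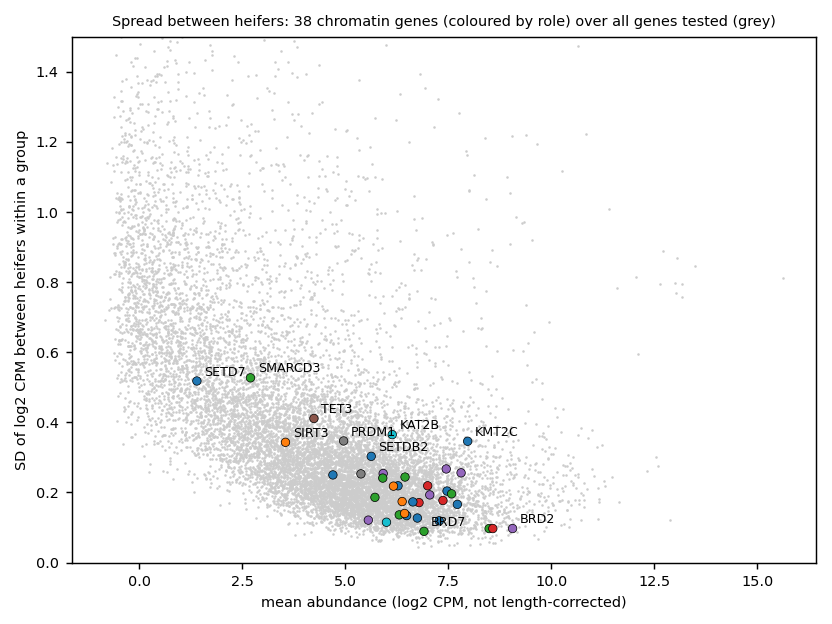
Within-group SD of log2 CPM (vertical axis) against mean log2 CPM (horizontal axis, not corrected for gene length) for all 13012 genes tested in grey and the 38 chromatin genes coloured by role as in the plot of log2 fold changes; 134 genes above 1.5 are not drawn. Most members lie in the lower part of the cloud, with KMT2C and KAT2B high for their abundance.

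The first principal component of log2 CPM held 48.8% of the variance of the 38 members and 23.1% of that of all genes tested, from which nothing is read, since the members are fewer and most entered through tables of correlated genes from these same heifers. LM1246 (2.03) and LM1244 (1.57) stood at one end and LM1283 (-1.83) and LM1330 (-1.0) at the other, so each end held 1 fertile and 1 subfertile heifer. Without SETD7 and SMARCD3, the least abundant members, the share was 46.1% and the same 4 heifers stood at the ends, with scores of 1.75, 1.31, -1.43 and -0.68. The TMM factors, which scale the library sizes, were highest in LM1246 (1.106) and LM1244 (1.102) and lowest in LM1283 (0.8959). LM1330 had a factor of 0.976. The part of these factors in the component was not tested.

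The weights separated members with opposite patterns. SETD7 (0.35), KMT2C (0.26), SETDB2 (0.26), TET3 (0.25), ARID4B (0.21) and KDM6A (0.19) were high in LM1246 and LM1244, and SMARCD3 (-0.43), PHF1 (-0.21), BRD9 (-0.19) and SETD1A (-0.14) were low there. SIRT3 (-0.21) was lowest in LM1244 but stood at 10.8 CPM in LM1246, near its median of 11.1 CPM. PHF1, for example, counted 129 CPM in LM1244, 132 in LM1246 and 228 in LM1283, whereas ARID4B counted 275, 324 and 184 CPM in the same heifers. LM1246 held the highest value of 15 members and LM1283 the lowest of 10, including KMT2C, SETD2, KDM6A and PHF3.

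Of these 4 heifers, 3 stood at the ends of several cell type markers. GP9 was lowest in LM1246 (0.28 CPM) and next in LM1244 (0.845 CPM), and highest in LM1330 (31.2 CPM), while LM1283 stood at 6.02 CPM, close to the median of 5.56. For the neutrophil transcript S100A9, LM1283 was highest (211 CPM) and LM1330 lowest (21.7 CPM). LM1330 was also lowest for JCHAIN (202 CPM) and the monocyte transcript CD68 (8.76 CPM). The eosinophil receptor CCR3 counted 10.9 and 11.1 CPM in LM1244 and LM1246, the lowest values, and 207 CPM in LM1330, and the T-cell transcript CD2 counted 79.2, 77.3 and 163 CPM in the same heifers. The summed level of the 3 platelet markers that could be named, of 6 listed, ranged from 170 CPM in LM1244 to 2210 CPM in LM1330 in the fertile group and from 179 CPM in LM1246 to 648 CPM in the subfertile group, and the part of these markers in the result was not tested. LM1262 had the fewest members above their 12-heifer median, 6 of 38, and LM1259 the most, 27 of 38, while the median over all genes was near 0 in both. With library size alone LM1262 still had the fewest, 4, but LM1313 had the most, 34 instead of 23, and LM1259 had 30.

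**Figure D4:**
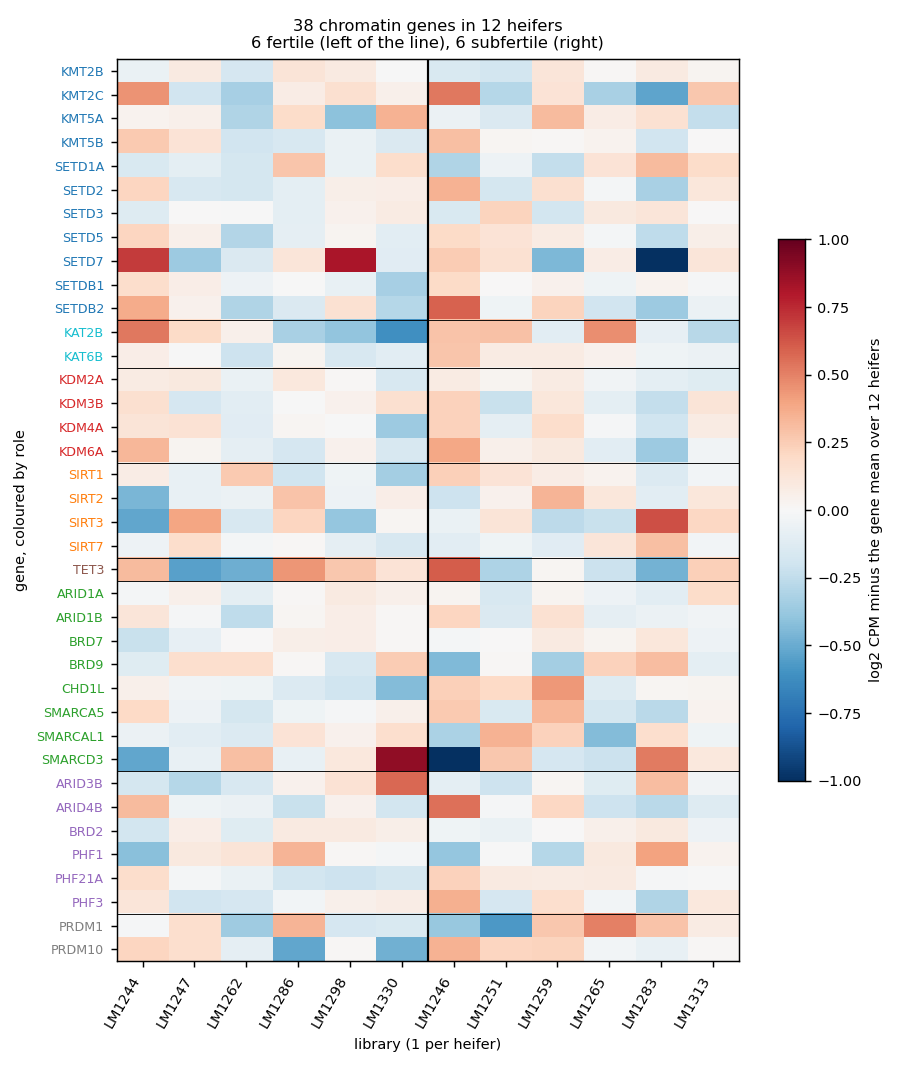
Log2 CPM of the 38 chromatin genes minus each gene's mean over the 12 heifers, with genes in rows grouped by role and heifers in columns, fertile left and subfertile right of the line; the colour scale ends at -1 and 1. LM1246 and LM1244 share raised KMT2C, TET3 and ARID4B and lowered SMARCD3 and PHF1, with no block that follows the fertility groups.

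**Figure D5:**
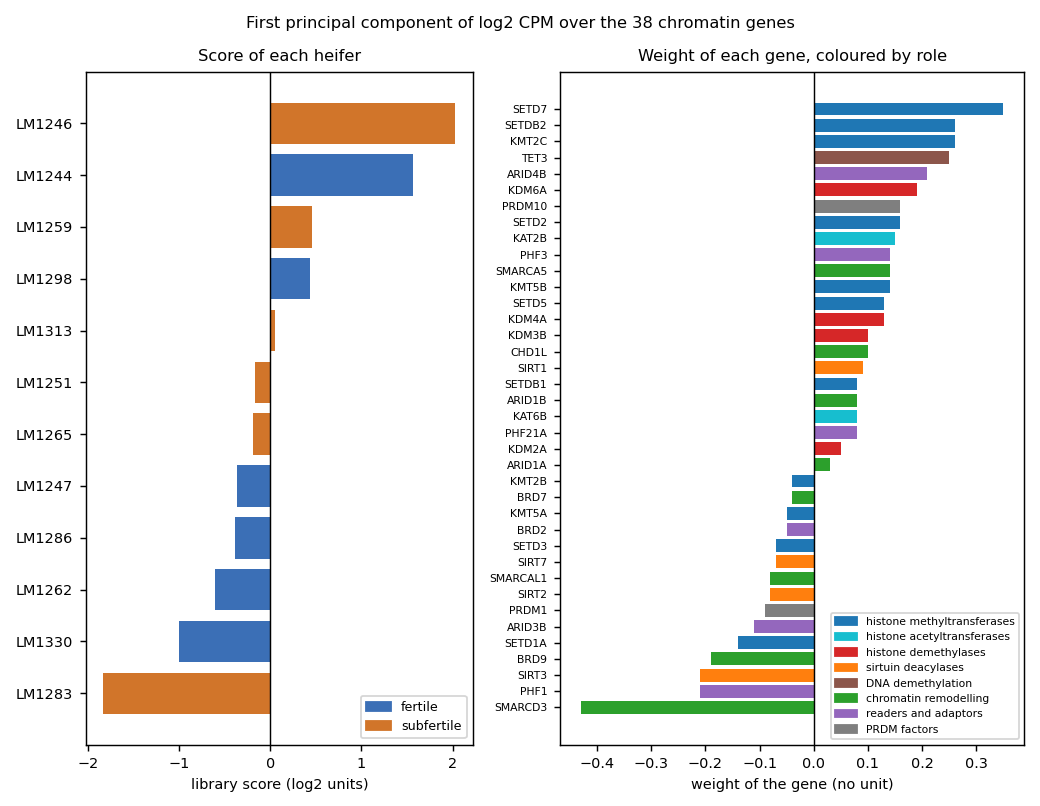
Score of each heifer (left, log2 units, fertile in blue and subfertile in orange) and weight of each gene (right, coloured by role) on the first principal component of the 38 chromatin genes. LM1246 (2.03) and LM1283 (-1.83), both subfertile, mark its ends.

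The members were also read against the share of counts taken by the most abundant gene of each library. The edgeR fit had fertility group as a term and was added after the data were seen. The slope is the change in log2 expression for each doubling of that share. An unadjusted P of 0.05 or less was reached by 7 of the 38 members (18.4%), against 9.99% of the genes tested, and no member passed an adjusted P of 0.05, against 0.115% of the genes tested. The slopes were negative for TET3 (-0.41), KMT2C (-0.33), KDM3B (-0.20), SMARCA5 (-0.20), PHF3 (-0.19) and SETD2 (-0.19) and positive for SIRT7 (0.13), with adjusted P by edgeR from 0.331 to 0.48. The part of this share in the differences between heifers was not tested further.

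Co-expression of the members within each group was described over 6 heifers, without a test, since the study examined differences in gene-to-gene correlation. Of 703 member pairs, 7 among fertile and 17 among subfertile heifers had an absolute Pearson r of 0.95 or more, which was 0.996% and 2.42% of pairs, beside 0.596% and 1% of all pairs of genes tested. Most members entered through tables of genes with high correlations in these same heifers, so nothing is read from that difference. KDM3B with PHF3 was the 1 pair at that level in both groups, with r of 0.97 in each. KDM4A with SETD2 had r of 0.99 in the subfertile and -0.04 in the fertile heifers. Leaving out 1 heifer at a time moved the fertile value from -0.55 to 0.41, the latter without LM1330, and the subfertile value from 0.98 to 1.0. SETDB1 with SMARCD3 had r of -0.98 in the fertile and -0.76 in the subfertile heifers, and the latter became 0.37 without LM1246. These pairs were picked for their r, and all members share the libraries, their depth and their scaling.

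Other chromatin genes that work with the members were taken from a list of 68, of which 42 were named and tested: 20 were higher and 22 lower in subfertile heifers. An unadjusted edgeR P of 0.05 or less was reached by 2 higher and 1 lower, beside 1.41% and 1.21% of all genes tested, and none passed an adjusted P of 0.05. PCGF3, a Polycomb ring finger subunit, ranged from 17.9 to 20.7 CPM in fertile and from 19.3 to 27.5 CPM in subfertile heifers, with a log2FC of 0.29 (SE 0.11, exact permutation P = 0.013). In 5 of the 6 subfertile heifers it exceeded every fertile value, LM1246 being the exception. MACROH2A2, a repressive histone variant, ranged from 1.80 to 4.17 CPM in fertile and from 1.03 to 2.55 CPM in subfertile heifers, with a log2FC of -0.71 (SE 0.28, exact permutation P = 0.0152). Its highest value was in LM1330 and its lowest in LM1246, and without either the unadjusted edgeR P exceeded 0.05 (log2FC -0.57 and -0.60). UHRF1, which guides maintenance DNA methylation in dividing cells, had a log2FC of 0.81 (SE 0.36, exact permutation P = 0.134), and its 79.2 CPM in LM1259 stood apart from 14.4 to 26.7 CPM in the other heifers. Without LM1259 the log2FC of UHRF1 was 0.22, and its unadjusted edgeR P was 0.05 or less in 5 of the 12 fits with 1 heifer left out (0.0506 to 0.07 without any of the fertile heifers), against 12 of 12 for PCGF3.

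Of 7 further remodelling subunits, 1 was higher and 6 lower in subfertile heifers, none with an unadjusted edgeR P of 0.05 or less. Of 4 Trithorax and COMPASS genes 2 were higher and 2 lower, and of 8 acetylation genes and readers 5 were higher and 3 lower. Of 6 Polycomb genes 3 were higher and 3 lower, as were 3 and 3 of 6 corepressors, and of 6 histone variants, linkers and chaperones 2 were higher and 4 lower. Of 5 other modifiers 4 were higher and 1 lower.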

How the data were processed

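The authors prepared strand-specific poly(A) libraries from 12 heifers in a single RNA batch, checked reads with FastQC 0.11.9 and MultiQC 1.12, and mapped them with STAR 2.7.5 to ARS-UCD1.3 with an Ensembl annotation. The strand column taken is not given in the sources used here. The deposited values are raw whole-number counts per gene, without normalization. Symbols came from the study's supplementary tables, some of them shortened, which paired 2923 counted genes with a name, and the tables' own fold changes, P-values and correlations were not used. A further gene of these families was left out by the selection rule and is not reported here. The members and lists were chosen with earlier results of these data known. Genes were kept with filterByExpr (minimum count 10), scaled by TMM and tested with the edgeR 4.0.16 quasi-likelihood F test under R 4.3.3, with fertility the sole model term, and Benjamini-Hochberg adjustment over 13012 genes. Log2 CPM used a prior count of 2. Exact permutation tests were two-sided over all 462 splits up to exchange of groups, with a smallest P of 0.00216. Values in every heifer are given for the 4 members with the smallest P in each direction, the 3 with the largest spread, and ARID3B, SETDB1, BRD2, BRD7 and BRD9. The fit was tested on simulated data. DESeq2 1.42.0, voom with limma 3.58.1, other scalings and filters, and leaving out each heifer were alternatives. SETD7 and SMARCD3 had the fewest counts, from 17 and 57 per library.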

Additional observations from a re-analysis of the deposited data

Results flagged for a closer look

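Of 76 groups of 6 heifers (38 members in each fertility group), 2 held a heifer whose gap to its nearest neighbour exceeded 0.625 of the whole range of log2 CPM, and chance gives about 1 in 20 such groups. ARID1B in the fertile group stood at 66.3 CPM in LM1262, against 78.3 to 85.7 CPM in the other 5, a gap of 0.647 of the range in log2 CPM and 0.617 in CPM, the latter under the limit. SETDB1 in the subfertile group stood at 102 CPM in LM1246, against 86.8 to 92.1 CPM in the other 5, a gap of 0.641 of the range in log2 CPM and 0.66 in CPM. LM1262 was also the heifer with the fewest members above their median, and LM1246 the heifer with the most members at their highest value.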

How the results depend on the processing

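The members with an unadjusted P of 0.05 or less numbered 1 under DESeq2, voom, RLE size factors, other filters on low counts and the tract score as a term, but 0 with library size alone, where CHD1L had a log2FC of 0.28, and 0 to 2 with 1 heifer left out. Partner genes with an unadjusted P of 0.05 or less numbered 3 in the main fit and 4 under DESeq2. They numbered 2 with voom, the filter of 10 CPM in 9 libraries and the tract score, and 1 to 4 with 1 heifer left out. With an absolute log2FC of 0.5 or more as well, partner genes numbered 2 in the main fit. That count fell to 1 with voom, the filter of 10 CPM in 9 libraries and the tract score, and ran from 0 to 2 with 1 heifer left out. With library size alone LM1247, LM1265 and LM1283 had 12, 6 and 9 members above their median, against 19, 15 and 16, and LM1313 had 34 against 23. The sign turned for BRD2 (0.00021 with voom, 0.0042 with library size alone), SMARCAL1 (-0.02 with voom), KDM3B (0.0019) and TET3 (0.01), the last 2 with the share of the most abundant gene as a term, chosen after seeing the data; the cause was not tested. With 1 heifer left out the sign of the log2FC turned for 24 members: ARID1A (-0.07 to 0.002), ARID1B (-0.03 to 0.05), ARID3B (-0.14 to 0.06), ARID4B (-0.06 to 0.14), BRD2 (-0.04 to 0.02), KDM2A (-0.06 to 0.0003), KDM3B (-0.08 to 0.02), KDM4A (-0.0028 to 0.10), KDM6A (-0.07 to 0.09), KMT2B (-0.06 to 0.01), KMT2C (-0.17 to 0.05), KMT5A (-0.05 to 0.09), KMT5B (-0.0043 to 0.12), PHF1 (-0.14 to 0.03), PHF3 (-0.02 to 0.12), PRDM1 (-0.01 to 0.19), SETD1A (-0.04 to 0.08), SETD2 (-0.03 to 0.11), SETDB2 (-0.07 to 0.16), SIRT7 (-0.01 to 0.09), SMARCA5 (-0.05 to 0.08), SMARCAL1 (-0.07 to 0.08), SMARCD3 (-0.33 to 0.0029), TET3 (-0.20 to 0.04); the cause was not tested. The median log2FC of the roles also moved with 1 heifer left out. It ran from -0.04 to 0.05 for the remodelling genes and from 0.0015 to 0.05 for the methyltransferases. For the readers and adaptors it ran from -0.01 to 0.05, and for the sirtuins from 0.06 to 0.12. No member was called at an adjusted P of 0.05 under any setting. The groups held different heifers and the labels pair none of them, so no paired analysis was made. The wider set of family genes by reference gene names was not run, since the reference table carries no Ensembl identifiers. The effect of depth was not tested.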
